A study of Macaca mulatta with 4 samples.

Results

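SPOCK1, SPOCK2 and SPOCK3 encode the testicans 1, 2 and 3, and these 3 genes were followed, by their symbols, among the 30807 genes counted in single nuclei of the fetal rhesus macaque cerebellum. Each symbol matched 1 gene, ENSMMUG00000001344 for SPOCK1, ENSMMUG00000002122 for SPOCK2 and ENSMMUG00000006851 for SPOCK3. SPOCK1 was picked because its level was higher in the oligodendrocytes of both libraries from LPS-exposed fetuses, so that contrast is given below as a description and without a test.

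The testicans are extracellular proteoglycans of the SPARC family, which carry glycosaminoglycan chains on a protein core with a thyroglobulin-like domain. In biochemical assays testican-1 inhibits the lysosomal protease cathepsin L, testican-1 and testican-3 restrain membrane-type matrix metalloproteinases, and testican-2 relieves that restraint. In the brain they are known mainly as products of neurons, and oligodendrocytes are the glia that pass from dividing precursors through a premyelinating stage to cells that wrap axons in myelin.

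Flash-frozen cerebellar hemispheres came from 4 fetuses, 2 without intervention (control) and 2 delivered 5 days after an intra-amniotic injection of 1 mg of LPS, a model of chorioamnionitis. The control fetuses were a female and a male at 130 days of gestation, and the LPS fetuses were a female at 131 days and a male at 133 days. Each fetus gave 1 library of nuclei, so LPS, age and any difference between the fetuses of a group cannot be told apart. Values of the 4 libraries are given below in the order Control female, Control male, LPS female and LPS male.

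The 4 libraries held 34282015 to 61665690 unique molecular identifiers (UMIs, each 1 captured RNA molecule), and 32565 barcodes that reached 500 genes, with no more than 5% of UMIs from mitochondria, were taken as nuclei, 6890 to 9250 per library. Pairs of libraries shared 16 to 21 nucleus barcodes, where drawing barcodes at random would give 7.91 to 11.7. The LPS male library stood apart, with 38.7% of its UMIs inside nuclei against 58.7 to 73.9% in the others, and with a median of 496 UMIs in its empty droplets against 196 to 300. Empty droplets, which hold free RNA and no nucleus, were read from the barcodes ranked between 3 and 4 times the number of nuclei. A level is written in CPM, the UMIs of a gene scaled to 1000000 UMIs summed over the nuclei of a class in 1 library, and intervals are exact 95% Poisson intervals that cover counting error only.

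SPOCK1 was highest in Golgi cells, the large GABAergic interneurons of the granular layer. Its level there was 2658, 2172, 2584 and 2286 CPM, and at least 96.5% of Golgi nuclei in each library held at least 1 SPOCK1 UMI. The 4 Golgi values lay close together and above every value of every other class. Next came the PAX2-marked interneuron precursors with 782, 724, 691 and 1131 CPM. Unipolar brush cells, a kind of excitatory interneuron, held 539, 299, 583 and 926 CPM, and molecular layer interneurons held 314, 574, 466 and 463 CPM. The levels of these last groups overlapped with each other and with those of granule neurons at 303, 257, 272 and 719 CPM, so no order among them is given.

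Purkinje cells, the output neurons of the cerebellar cortex, held little SPOCK1, at 73.1, 76.7, 67.8 and 236 CPM. Bergmann glia held 24.5, 46.2, 21.2 and 161 CPM and astrocytes 64.9, 104, 59.1 and 273 CPM. In microglia, the resident macrophages, the level was 9.05, 78.2, 41.4 and 329 CPM. In each of these classes the LPS male library was the highest, and the empty droplets of that library were also the highest, with 108, 329, 73.9 and 604 CPM. The part of free RNA in the higher LPS male levels was not tested.

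SPOCK2 was spread more evenly over the neurons. Unipolar brush cells held the highest level among the classes in every library, at 358, 470, 371 and 417 CPM. They were only 75 nuclei over all libraries, and endothelial cells of the LPS male library came near, so this rank is a description. Golgi cells held 189, 342, 306 and 324 CPM, endothelial cells 207, 275, 256 and 397 CPM and granule neurons 222, 240, 196 and 301 CPM, and these ranges overlapped. The lowest levels were in fibroblasts, with 78.8, 41.6, 57.9 and 29.2 CPM, in oligodendrocytes and in microglia, with 63.3, 44.0, 71.5 and 159 CPM. Empty droplets held 521, 133, 427 and 186 CPM, which in both female libraries was more than in any of the 12 classes plotted.

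SPOCK3 was highest in Purkinje cells in the Control female, Control male and LPS female libraries. The Purkinje level was 1610, 959, 2695 and 399 CPM over 27, 54, 22 and 15 nuclei. In the LPS male library Bergmann glia stood above Purkinje cells, and the Bergmann level was 530, 155, 345 and 460 CPM. Golgi cells also differed between libraries, with 628, 61.7, 281 and 87.0 CPM. Both female libraries were above both male libraries in Purkinje and in Golgi cells, while in astrocytes (97.7, 32.1, 105 and 95.4 CPM) the Control male library alone was low. The share of all genes that split the libraries this way was not determined. The female libraries were also deeper, with a median of 4508 (Control) and 4063 (LPS) UMIs per nucleus against 1882 and 2308.5 in the males. Sex and depth therefore cannot be told apart here. SPOCK3 in empty droplets was 113, 120, 84.1 and 159 CPM, below the Purkinje and Bergmann levels in every library.

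**Figure D1:**
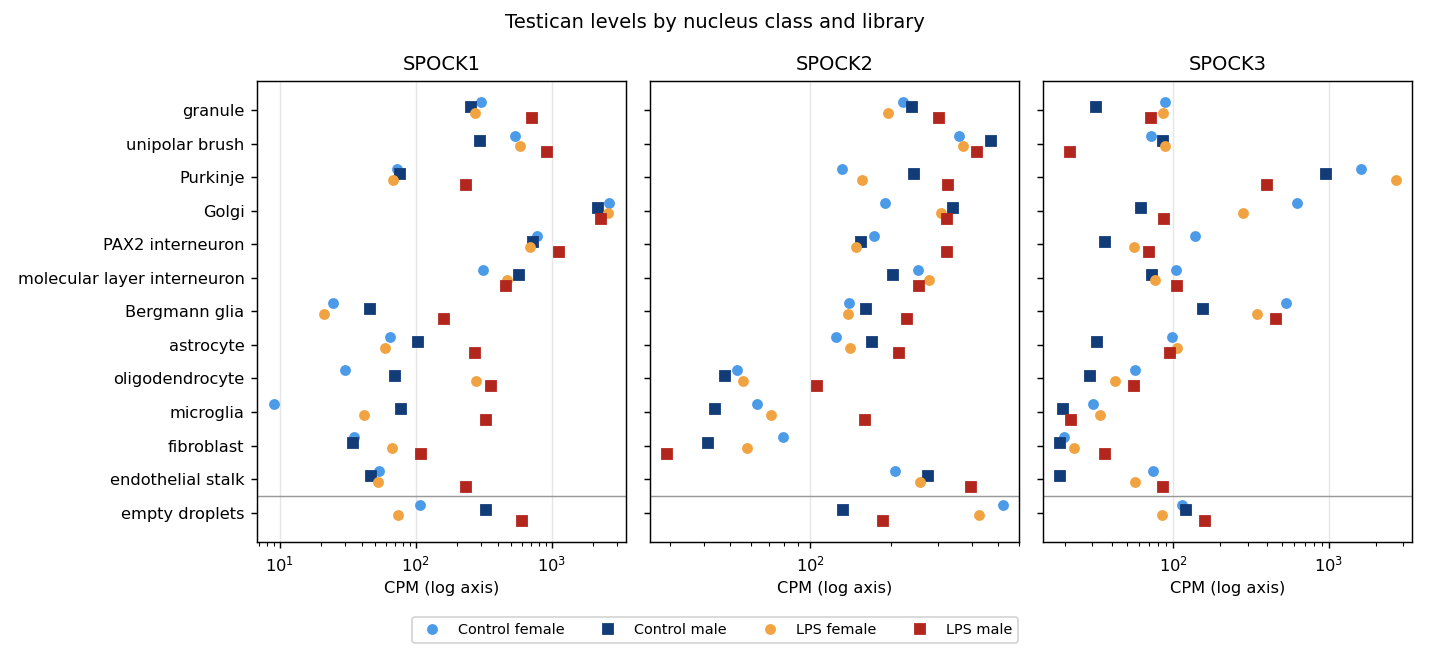
Levels of SPOCK1, SPOCK2 and SPOCK3 (x axis, CPM, logarithmic) in 12 classes of nuclei and in empty droplets (y axis), 1 point per library. SPOCK1 peaks in Golgi cells in every library, SPOCK2 in unipolar brush cells, and SPOCK3 in Purkinje cells in all libraries but LPS male, where Bergmann glia are higher.

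The likeness of the 3 genes across classes was low to moderate. Over 46 units of 1 class in 1 library, from 13 classes and each with at least 100000 UMIs, Pearson's r of the log levels was 0.58 for SPOCK1 and SPOCK2, 0.33 for SPOCK2 and SPOCK3 and 0.15 for SPOCK1 and SPOCK3. Units of 1 library share its free RNA and depth, so these values are descriptions. Among 12419 genes, the named gene most like SPOCK1 was SYN2, a synaptic vesicle protein (r 0.91), followed by RBFOX1, a neuronal splicing factor (0.88), XKR4 (0.88) and NRG1, a ligand of ERBB receptors (0.88). The unnamed gene ENSMMUG00000004606 ranked between SYN2 and RBFOX1 (0.90). For SPOCK2 the closest were HECTD2 (0.82), ABLIM3 (0.77), ATP9A (0.75), TMEM25 (0.75) and SLC45A1 (0.73). For SPOCK3 they were LRRC3B (0.80), DAB1, the adaptor of reelin signaling (0.78), COA1 (0.77), DLG2, a synaptic scaffold (0.75), and R3HDM1 (0.75).

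Granule neurons made up most nuclei and could be ordered from proliferating precursors through committing, migrating and maturing to mature cells. SPOCK1 peaked in migrating granule neurons in every library. It rose from 142, 138, 153 and 371 CPM in proliferating precursors and 270, 233, 326 and 454 CPM in committing cells to 752, 601, 653 and 1415 CPM in migrating cells. It was then 173, 161, 146 and 561 CPM in maturing cells, and 486, 287, 225 and 852 CPM in mature cells. The LPS male library was above the others at all 5 stages, and the other 3 libraries had similar levels up to the maturing stage. The migrating level was above the empty droplets of the same library in every library. In the Control male library the levels of all other stages were below the empty droplets. In the LPS male library those of the proliferating, committing and maturing stages were below them.

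SPOCK2 followed another course and was highest late. It was 51.1, 62.3, 39.9 and 80.7 CPM in proliferating precursors, 144, 156, 128 and 181 CPM in migrating cells, and 299, 341.05, 283 and 357 CPM in maturing cells. In mature cells it was 246, 293, 273 and 354 CPM. All 4 libraries showed the same order of stages from the committing stage to the maturing stage. In both female libraries the levels given here were below the empty droplets of the same library. In both male libraries the proliferating level was below the empty droplets, and the maturing and mature levels were above them.

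SPOCK3 was low in the granule lineage until the maturing stage. Migrating cells held 19.8, 21.7, 16.5 and 28.5 CPM, below the empty droplets of every library. Maturing cells held 131, 43.1, 136 and 82.3 CPM, and mature cells 84.6, 25.7, 119 and 88.3 CPM. The maturing level was above the empty droplets in both female libraries and below them in both male libraries, and the mature level was above them in the LPS female library alone. Against the migrating stage the maturing level was higher in each library. The stages were defined by clustering the same nuclei, with the testicans left out of the clustering features, and differences between stages were not tested.

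**Figure D2:**
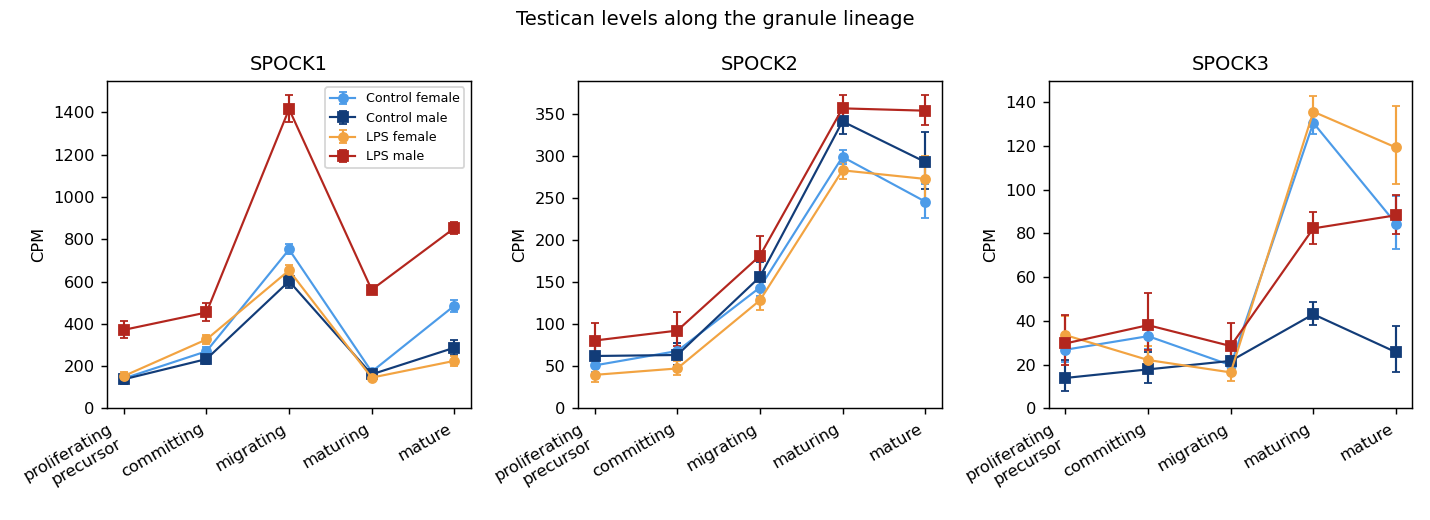
Levels of the 3 testicans (y axis, CPM) at 5 stages of the granule lineage (x axis), with 1 line per library and exact 95% Poisson intervals. SPOCK1 peaks at the migrating stage in all 4 libraries, while SPOCK2 and SPOCK3 are low up to the migrating or committing stage and higher in maturing cells.

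The question of how intra-amniotic LPS bears on these genes was first put to the classes in which SPOCK1 was not chosen. In the granule lineage SPOCK1 was 303, 257, 272 and 719 CPM, with the LPS female value between the 2 controls and the LPS male value above them. The edgeR quasi-likelihood test gave a log2 fold change of LPS over control of 0.82 ± 0.53 (SE) with an adjusted p of 1.00. Without the LPS male library the change was -0.04, and without the LPS female library it was 1.35. SPOCK2 had a change of 0.11 ± 0.32 and SPOCK3 of 0.35 ± 0.59, each with an adjusted p of 1.00 in the same edgeR test. SPOCK2 turned to -0.24 without the LPS male library, and SPOCK3 to -0.23 without the Control male library.

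In astroglia, which joins Bergmann glia and astrocytes, SPOCK1 was 47.8, 82.2, 41.6 and 227 CPM. The LPS female value was the lowest of the 4 and the LPS male value the highest. Its edgeR log2 fold change was 1.02 ± 0.75 with an adjusted p of 1.00, and -0.58 without the LPS male library. SPOCK2 (131, 167, 139 and 221 CPM) changed by 0.26 ± 0.31, or -0.05 without the LPS male library. SPOCK3 (280, 77.8, 216 and 246 CPM) changed by 0.29 ± 0.65, or -0.40 without the Control male library, and neither had an adjusted p below 1.00 in edgeR.

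GABAergic interneurons joined the Golgi cells, the PAX2-marked precursors and the molecular layer interneurons, and are where SPOCK1 was most abundant. The mix of these classes was not held alike between libraries, so in the sums below mix and level cannot be told apart. SPOCK1 was 1103, 997, 1141 and 1045 CPM, with overlapping groups, an edgeR log2 fold change of 0.04 ± 0.36 and an adjusted p of 1.00. Its direction turned to -0.09 without the Control male library or without the LPS female library. SPOCK2 was 184, 199, 204 and 305 CPM, so both LPS libraries stood above both controls, as was true of 9.1% of the 11109 genes tested in these cells. Its log2 fold change was 0.39 ± 0.31, and that of SPOCK3 (230, 46.1, 115 and 80.0 CPM) was -0.56 ± 0.76, or 1.15 without the Control female library, each with an adjusted p of 1.00 in edgeR.

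None of the 3 genes was called in any of these classes at the thresholds of 0.1 for the adjusted p and 0.25 for the size of the log2 fold change, and neither was any other gene. The share of genes called was 0% of 14900 in the granule lineage, of 12241 in astroglia and of 11109 in GABAergic interneurons. An unadjusted edgeR p under 0.05 was found for 28, 42 and 35 genes in these classes, and DESeq2, which called none, had 59, 48 and 32. With 2 fetuses per group the absence of a call does not show that the levels were alike. Free RNA moved with the SPOCK1 values of the LPS male library, as given above. With free RNA subtracted, the edgeR log2 fold change of SPOCK1 was 0.83 ± 0.54 in the granule lineage and 1.38 ± 2.14 in astroglia. In GABAergic interneurons it was 0.03 ± 0.49. The part of free RNA in the values of the LPS male library by itself was not tested.

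**Figure D3:**
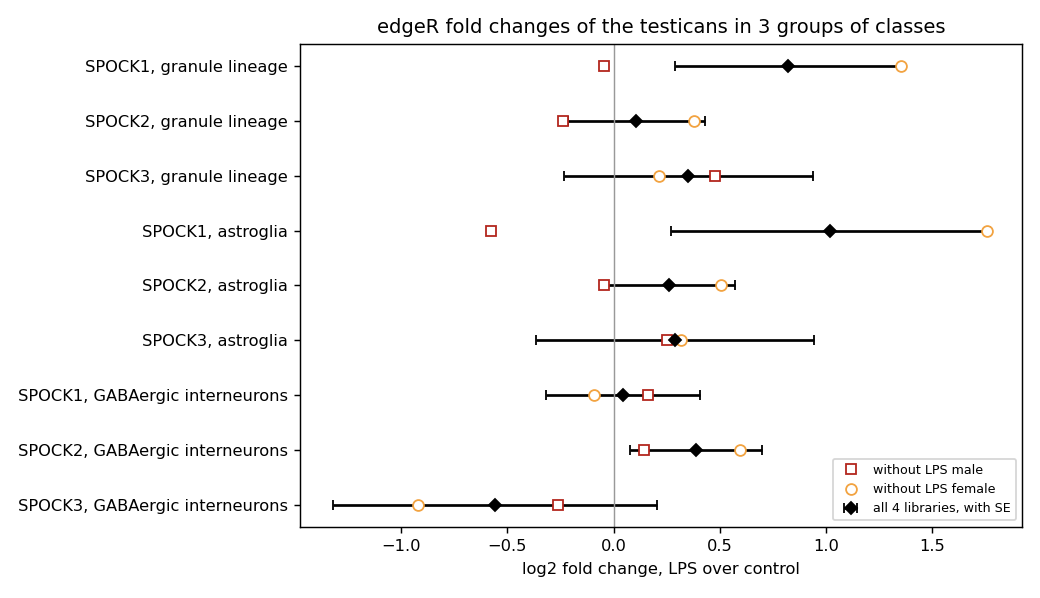
Log2 fold changes of LPS over control (x axis) of the 3 testicans in the granule lineage, astroglia and GABAergic interneurons (y axis), with diamonds and bars for the edgeR estimate and its SE and open symbols for the estimate without 1 LPS library. SPOCK1 in the granule lineage moves from 0.82 to -0.04 without the LPS male library, and in astroglia from 1.02 to -0.58.

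The genes that build or work with the testicans were also examined as fixed lists. In the granule lineage none of the tested genes was called among 5 of 5 other members of the SPARC family, 11 of 14 heparan sulfate proteoglycan cores, 15 of 17 genes of glycosaminoglycan linker and chain synthesis, 14 of 24 of glycosaminoglycan sulfation and 9 of 10 metalloproteinases and cathepsins. Both LPS libraries were above both controls for 2, 1, 2, 3 and 2 of these genes, respectively, against a background of 7.03% of all genes tested, and below both for 1 protease, against 5.09%. The genes that counted as above were SPARCL1 and SMOC1, the core TGFBR3, EXTL3 and CSGALNACT2, CHST7, HS6ST2 and SULF1, and the cathepsins CTSL and CTSB, while MMP15 was below; they are named after their values were seen. The median log2 fold changes were 0.49, 0.02, 0.03, -0.07 and -0.04, beside 0.01 over all genes.

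Genes of these lists with a mean of at least 20 CPM in the granule lineage are given next. SPARCL1, a secreted synapse-organizing member of the family, had 28.4, 8.32, 39.5 and 32.0 CPM, with the Control male library alone low, and a log2 fold change of 0.91 ± 0.67, while SMOC1 had one of 0.24 ± 0.27. Among the cores, GPC6, a glypican, had 0.29 ± 0.57 and GPC5 -0.10 ± 0.49. XYLT1, which starts the chains, had -0.33 ± 0.55, and EXTL3 0.22 ± 0.29. Of the sulfotransferases HS6ST1 had -0.33 ± 0.57 and HS6ST2 0.32 ± 0.33, and of the membrane-type metalloproteinases MMP24 had 0.28 ± 0.38 and MMP16 0.01 ± 0.47. All of these had an adjusted p of 1.00 in edgeR. In astroglia 4, 11, 14, 15 and 9 genes of the 5 lists were tested and in GABAergic interneurons 5, 8, 14, 14 and 7, and none was called. In astroglia 1, 3, 2, 1 and 3 of these genes had both LPS libraries above both controls, against 8.67% of all genes, and 1, 0, 1, 0 and 0 had them below, against 6.83%. In GABAergic interneurons 0, 0, 2, 0 and 2 were above, against 9.1% of all genes there, and 1, 0, 1, 0 and 0 below, against 7.42%.

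Oligodendrocytes were 126, 96, 87 and 158 nuclei, named from 15 or 16 of 16 oligodendrocyte markers that held UMIs, with a summed level of 13856 to 17748 CPM against 834 to 2178 CPM in empty droplets. SPOCK1 in these nuclei was 30.03 CPM (19.6 to 44.0), 70.7 CPM (44.3 to 107), 276 CPM (235 to 322) and 355 CPM (314 to 399), from 26, 22, 158 and 279 UMIs. Both LPS values lay above both control values, a pattern that chose the gene and that 11.7% of the 8079 genes tested in this class showed. The ratio of the group means, 315 ± 55.7 CPM for LPS against 50.4 ± 28.8 CPM for control (SD, n = 2), was 2.62 on the log2 scale with 1 CPM added, and it was 3.16 between the females and 2.31 between the males. With classes assigned by marker scores instead of clusters it was 1.16. The LPS female level was above the 73.9 CPM of the empty droplets of that library, whereas the LPS male level was below the 604 CPM of its own.

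The share of oligodendrocyte nuclei with at least 1 SPOCK1 UMI was 11.9, 10.4, 19.5 and 41.1%, at a median depth of 6040.5, 2442, 5753 and 3849 UMIs per nucleus. Microglia, in which SPOCK1 is not known as a marker, gave 2.41, 9.46, 8.20 and 46.5% at 3845, 2054.5, 3733 and 2431 UMIs. With every nucleus thinned to 1000 UMIs, which left out at most 4 oligodendrocyte nuclei and 8 microglia per library, oligodendrocytes had 1.60, 4.35, 11.6 and 16.5% and microglia 0, 6.06, 4.92 and 24.4%. The thinned share of oligodendrocytes was above that of microglia in both female libraries and below it in both male libraries. The LPS male microglia, 43 nuclei, differed from those of the other libraries. Of them 23.3% were called doublets, against 5.41 to 9.84%, and granule genes were at 8840 CPM, against 2099 to 3245 CPM. In oligodendrocytes 14 of 126, 6 of 96, 5 of 87 and 5 of 158 nuclei were called doublets. Their summed granule markers were also highest in the LPS male library, at 7383 CPM against 4288 to 4856 CPM.

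How far the SPOCK1 UMIs were gathered in few nuclei differed between libraries. They were found in 15, 10, 17 and 65 nuclei, and nuclei with 5 or more SPOCK1 UMIs numbered 1, 1, 7 and 21 in the 4 libraries, and the most in 1 nucleus was 6, 5, 38 and 23. The fewest nuclei that held 50% of the SPOCK1 UMIs were 4, 3, 3 and 11 in the 4 libraries. In the Control female library 10 of the 15 nuclei held a single UMI, and in the LPS male library 26 of the 65 did. Of the 30 nuclei with 5 or more, 1 was called a doublet.

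By stage, the precursors held 32.8, 39.5, 36.5 and 100 CPM of SPOCK1, from 4 to 12 UMIs per library, and the myelinating nuclei 10.7, 32.1, 24.1 and 139 CPM. Proliferating nuclei, 8 to 11 per library, held 22.6, 0, 97.5 and 389 CPM, and the 0 rests on 28435 UMIs, which allows up to 106 CPM. At these stages the LPS female levels rested on 6, 2 and 4 UMIs. In the LPS male library 24 of the 28 UMIs of proliferating nuclei came from 2 nuclei with genes of granule neurons at 15920 and 16019 CPM, and 14 of the 37 UMIs of myelinating nuclei came from 2 nuclei with such genes at 7807 and 12425 CPM, 1 of them the called doublet. The premyelinating stage stood apart, with 3.27, 115, 597 and 596 CPM from 1, 15, 131 and 100 UMIs.

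The premyelinating nuclei fell into 2 sub-clusters of the same stage name. One was led by GPR17, the receptor of newly committed oligodendrocytes, and held 14, 19, 12 and 18 nuclei. The other was led by ADAM33, DNAH10 and MKX, was rich in MBP, the myelin basic protein, and held 21, 17, 15 and 15 nuclei. MBP was 10361, 10175, 8103 and 21810 CPM in this second sub-cluster and 71.6, 579, 366 and 2231 CPM in the GPR17-led one. In the myelinating nuclei it was 16037, 12226, 15233 and 19864 CPM. On this marker the second sub-cluster thus lay nearer to the myelinating nuclei, and in the LPS male library it was above them.

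In the MBP-rich sub-cluster SPOCK1 was 0, 66.9, 903 and 1054 CPM, from 0, 5, 129 and 90 UMIs. The 0 of the Control female library allows up to 14.4 CPM, and the Control male UMIs all came from 1 nucleus. Of the LPS female UMIs 128 lay in 6 nuclei, and of the LPS male UMIs 87 lay in 7. The Poisson intervals of the LPS libraries, 754 to 1073 and 847 to 1295 CPM, therefore do not cover the spread between nuclei or fetuses. Both LPS levels were above the empty droplets of the same library, in a sub-cluster singled out after its values were seen. The share of all genes that separated the groups in these nuclei was not determined. SPOCK1 UMIs were found in 0 of 21, 1 of 17, 7 of 15 and 9 of 15 nuclei, and 5 or more UMIs in 0, 1, 6 and 7 nuclei. In the GPR17-led sub-cluster SPOCK1 was 10.2, 181, 26.1 and 121 CPM from 1, 10, 2 and 10 UMIs, with no nucleus at 5 or more and with the groups overlapping.

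**Figure D4:**
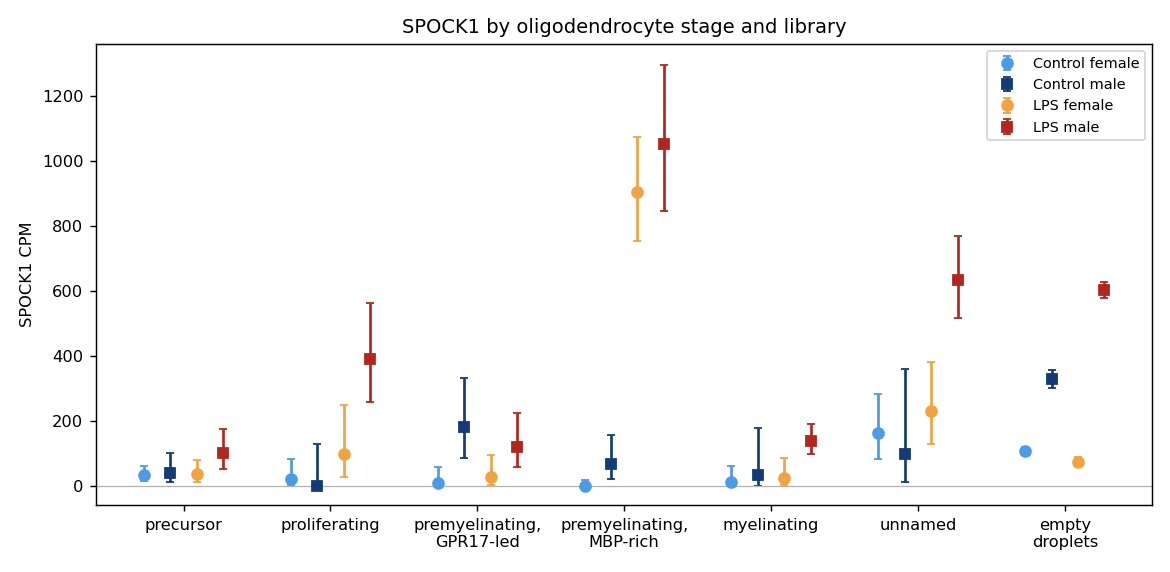
SPOCK1 levels (y axis, CPM) in the stages of oligodendrocytes and in empty droplets (x axis), 1 point per library with exact 95% Poisson intervals. In the MBP-rich premyelinating sub-cluster, which was singled out after its values were seen, the LPS libraries are at 903 and 1054 CPM. The controls there are at 0 and 66.9 CPM. SPOCK1 was picked on the contrast of LPS and control over all oligodendrocytes.

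Without the MBP-rich sub-cluster the oligodendrocyte levels were 39.5, 71.9, 67.5 and 270 CPM. The LPS female value then fell between the controls and the LPS male value alone was high, so the placement of both LPS libraries above both controls rested on these 68 nuclei. The split into sub-clusters and the leaving out of one were chosen after the values were seen.

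Markers of granule neurons were followed in the same nuclei, since granule RNA is the most abundant RNA of the tissue. Over all oligodendrocytes the 20 granule markers, of which 18 to 20 held UMIs, summed to 4622, 4856, 4288 and 7383 CPM, and in empty droplets to 8905, 9769, 6720 and 15561 CPM. For single nuclei and stages a second, overlapping list of granule genes was summed, and it came to 4414, 4650, 4062.5 and 7117 CPM over all oligodendrocytes. In the 6 LPS female nuclei of the MBP-rich sub-cluster with 5 or more SPOCK1 UMIs these granule genes ran from 444 to 4598 CPM, with a median of 1968 CPM against 3001 CPM over all 15 nuclei. In the 7 such LPS male nuclei they ran from 1344 to 13571 CPM, with a median of 2934 CPM against 3688 CPM. None of these 13 nuclei was called a doublet. Neither were the 2 LPS male proliferating nuclei with granule genes at 15920 and 16019 CPM, so the lack of a call does not show that granule RNA was absent. The doublet calls of the LPS male library also used a threshold taken from the female libraries. The medians over all nuclei include the nuclei picked by their SPOCK1, and the part of granule RNA in their SPOCK1 was not tested.

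**Figure D5:**
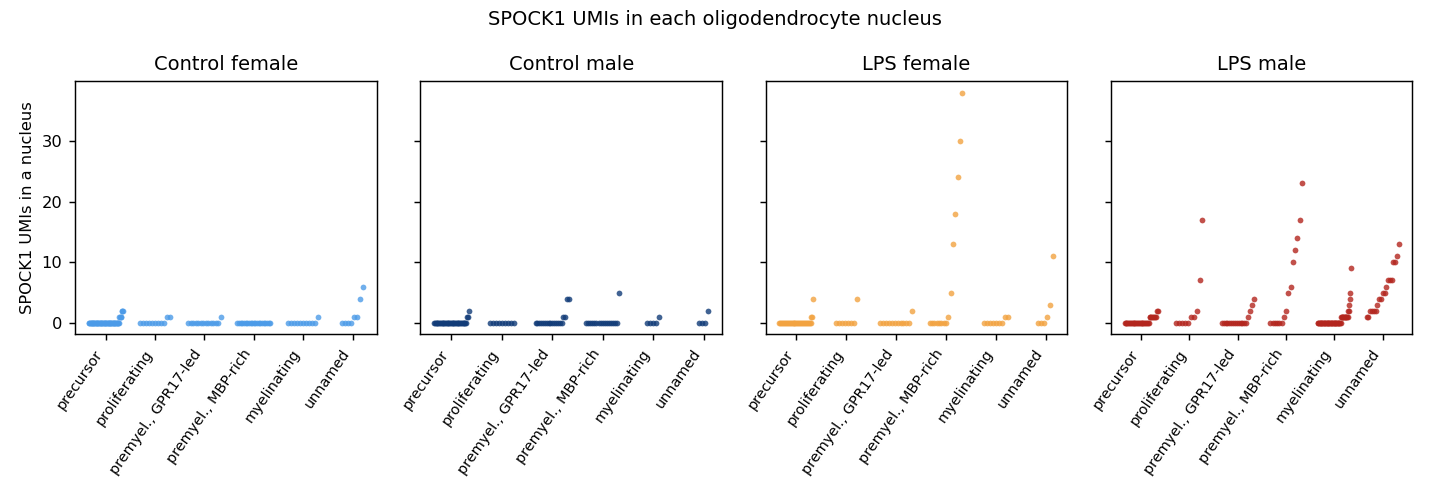
SPOCK1 UMIs (y axis) in each oligodendrocyte nucleus, by stage (x axis), with 1 panel per library and 1 dot per nucleus. In the LPS female library the 6 nuclei of the MBP-rich sub-cluster with 5 or more UMIs reach 38, and in the LPS male library the 21 nuclei with 5 or more UMIs are 7 in the MBP-rich sub-cluster, 10 in the unnamed one, 2 among proliferating and 2 among myelinating nuclei.

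A different picture was seen in a further sub-cluster of 8, 4, 6 and 19 nuclei that took no stage name, had genes such as NYAP2 and HCRTR2 among its leading genes, and in which 32.4% of nuclei were called doublets. Its SPOCK1 level was 162, 99.6, 231 and 634 CPM, and its granule genes had a median of 14101, 13340, 11422 and 13675 CPM. It held 102 of the 279 oligodendrocyte SPOCK1 UMIs of the LPS male library and 10 of its 21 nuclei with 5 or more. Without it the oligodendrocyte levels were 17.7, 68.8, 282 and 283 CPM, and the log2 ratio of LPS to control was 2.68.

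Within the MBP-rich sub-cluster the nuclei with 5 or more SPOCK1 UMIs could be set beside those with none, as a description of nuclei that were picked by their SPOCK1. BCAS1, an early marker of the premyelinating stage, was 8906 CPM in the 6 LPS female nuclei against 13342 CPM in the 8 without SPOCK1, and 1250 CPM in the 7 LPS male nuclei against 9007 CPM in 6. MOBP, a late myelin gene, was 709 CPM against 0 in the LPS female library and 1023 CPM against 0 in the LPS male library. MBP was 11116 against 6478 CPM and 23584 against 14812 CPM, and MAG, an adhesion protein of myelin, 561 against 229 CPM and 1345 against 555 CPM. In both LPS libraries the nuclei with SPOCK1 thus held more of these 3 late genes and less BCAS1. ENPP6 and TNS3, other markers of the premyelinating stage, did not follow BCAS1 in the LPS female library, with 1270 against 1175 CPM and 2870 against 2967 CPM, while in the LPS male library they were 909 against 2647 CPM and 4243 against 7001 CPM. The single Control male nucleus with 5 UMIs held less BCAS1 (1015 against 7078 CPM) and more MOBP (369 against 47.0 CPM) and MAG (1200 against 595 CPM) but less MBP (6368 against 10821 CPM) than the 16 without. Nuclei with 5 or more SPOCK1 UMIs were deeper than those with none, at 10835 against a mean of 3991 UMIs in the Control male library, a mean of 10105 against 8722 in the LPS female library and 7542 against 3905 in the LPS male library. The 21 Control female nuclei without any SPOCK1 UMI held 890 CPM of MOBP and 10361 CPM of MBP, so late myelin genes were present there without detectable SPOCK1.

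SPOCK2 in oligodendrocytes was 53.1, 48.2, 55.9 and 106 CPM, from 46, 15, 32 and 83 UMIs. Both LPS values were above both control values, as for 11.7% of the 8079 genes tested in this class, but the LPS female value by little. All 4 SPOCK2 values were below the empty droplets of their library. Its log2 ratio was 0.66, with 0.07 between the females and 1.11 between the males. In the MBP-rich sub-cluster SPOCK2 was 9.62, 26.8, 28.0 and 129 CPM, from 2, 2, 4 and 11 UMIs. These are too few to order the Control male and LPS female values. Of the 11 LPS male UMIs 8 lay in the 7 nuclei with 5 or more SPOCK1 UMIs, at 152 CPM against 42.7 CPM in the nuclei without SPOCK1. In the precursors it was even, at 45.9, 49.3, 54.8 and 58.5 CPM.

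SPOCK3 in oligodendrocytes was 56.6, 28.9, 41.9 and 56.0 CPM, from 49, 9, 24 and 44 UMIs, with overlapping groups and a log2 ratio of 0.19. It read higher in precursors, at 72.2, 59.2, 79.2 and 100 CPM, than in premyelinating nuclei, at 22.9, 15.4, 4.56 and 23.8 CPM, in each library. The premyelinating values rest on few UMIs. In the Control male library the 9 UMIs over all stages are too few to order the stages. Every precursor value was below the empty droplets of its library, and the part of free RNA in these levels was not tested.

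The same lists of genes were described in oligodendrocytes without a test. The stage make-up of this class differed between libraries, with 61, 42, 37 and 38 precursors and 11, 5, 9 and 58 myelinating nuclei. Its part in the levels of the listed genes was not tested. Both LPS libraries were below both controls for 3 of 6 heparan sulfate proteoglycan cores tested, beside 9.9% of all genes. These were GPC5, with 55.4, 77.2, 45.4 and 26.7 CPM, SDC2, with 45.1, 35.4, 24.5 and 21.6 CPM, and SDC3, with 41.6, 57.9, 40.2 and 39.4 CPM. All 3 rest on low UMI counts, and SDC3 separated the groups by little. Both LPS libraries were also below both controls for 2 of 12 genes of linker and chain synthesis, EXTL2 and CSGALNACT1. CSGALNACT1, which begins chondroitin sulfate chains, was at 221, 141, 122 and 106 CPM and a log2 fold change of -0.70, while XYLT1 had -0.76 with overlapping groups. Of 4 other SPARC family genes SPARCL1 had -0.21 and SMOC1 0.02, of 10 sulfation genes SULF2 had -0.80 and NDST3 0.69, and of 5 proteases MMP17 had -1.16 and MMP24 0.94. The groups overlapped for SPARCL1, SMOC1, SULF2, NDST3, MMP17 and MMP24, and MMP17, at 31.2, 113, 27.9 and 31.8 CPM, was high in the Control male library alone. Both LPS libraries were above both controls only for FSTL1 and CTSK among the genes of these lists, beside 11.7% of all genes, and SDC3, EXTL2, FSTL1 and CTSK are named after their values were seen. The medians of the 5 lists were -0.10, -0.50, 0.01, 0.05 and -0.32, beside 0.01 over all genes.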

How the data were processed

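For each library the authors deposited raw UMI counts of every gene in every barcode, intronic reads included, neither normalized nor filtered. Per the labels, reads came from 10x 3′ kits (version 3.1) and were mapped to Mmul_8.0.1. The protocol names CellRanger 5.0, whereas the submitters' processing notes name version 4. The members and lists were chosen with earlier results of these data known.

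Nuclei were barcodes with 500 genes or more and no more than 5% of UMIs from mitochondria. Seurat 5.3.0 (R 4.3.3) integrated the libraries by anchors, with the testicans left out of the features. Each cluster was named after the marker list with the greatest mean log2 fold over the remaining clusters, with at least 3 markers raised. Clusters of shallow nuclei or with over 50% doublets (Scrublet in scanpy 1.11.5) stayed unnamed. Granule nuclei and oligodendrocytes were re-clustered and staged the same way. In the Control male and LPS male libraries the automatic doublet threshold found none and was replaced by the median of the thresholds of the female libraries.

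Summed UMI counts per library were tested with edgeR 4.0.16 (filterByExpr, TMM, quasi-likelihood test, Benjamini-Hochberg adjustment over all genes tested), with DESeq2 1.42.0 as the other tool. The scripts were tested on simulated data. The oligodendrocyte contrast of the testicans used ratios of mean CPM with a pseudocount of 1 CPM. The log2 fold changes of listed genes in oligodendrocytes, and the medians of the lists, were edgeR estimates. An exact permutation test of 2 against 2 libraries cannot go below a two-sided p of 0.333 and was not used. Likeness was Pearson's r of log levels for genes with at least 20 CPM in a unit. Genes named from the lists were up to 2 per list with the largest absolute log2 fold change among those with a mean of at least 20 CPM. The limit for a count of 0 was 3 UMIs. Python 3.11.15 was used for the remaining steps.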

Additional observations from a re-analysis of the deposited data

Results flagged for a closer look

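The 3 testicans were each compared in the granule lineage, astroglia, GABAergic interneurons and oligodendrocytes. For 7 of these combinations the log2 ratio of LPS to control was positive between the male libraries and negative between the female libraries. The share of all genes with this pattern was not determined. The male minus female difference was 1.63 for SPOCK1, 0.51 for SPOCK2 and 1.22 for SPOCK3 in the granule lineage. It was 1.65 for SPOCK1 and 2.02 for SPOCK3 in astroglia, 1.78 for SPOCK3 in GABAergic interneurons and 1.35 for SPOCK3 in oligodendrocytes. Each side is 1 library against 1, so the differences were not tested, and sex, age and library cannot be told apart. No group held enough libraries for a check of single outlying samples.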

How the results depend on the processing

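No paired analysis was possible because the labels carry no replicate numbers; sex, shared by 1 control and 1 LPS library, was used as a term instead and turned no direction. The log2 ratio of SPOCK1 in oligodendrocytes (2.62) was 2.14 to 3.35 without 1 library, where the choice of the gene fixes the direction. It was 8.11 with free RNA subtracted, which left both controls at 0 UMIs so that the value depends on the pseudocount, 1.16 with classes from marker scores, and 1.58 without the MBP-rich premyelinating sub-cluster. SPOCK2 (0.66) was 1.30 without doublets, 2.33 with free RNA subtracted, 0.18 with classes from marker scores, 1.69 with stages weighted alike, and 0.14 to 1.04 without 1 library. SPOCK3 (0.19) was -3.84 with free RNA subtracted, which left it at 0 UMIs in both LPS libraries, and -0.21 to 0.74 without 1 library. Where no construction of the alternative is named, the cause was not tested.

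In the granule lineage the range without 1 library was -0.043 to 1.35 for SPOCK1, -0.24 to 0.38 for SPOCK2 and -0.23 to 1.41 for SPOCK3. In astroglia it was -0.58 to 1.76, -0.048 to 0.51 and -0.40 to 1.67, and in GABAergic interneurons -0.094 to 0.19, 0.14 to 0.59 and -1.31 to 1.15. No other alternative turned a direction, and none called a testican. The number of genes called rose from 0 to 11 in astroglia and 12 in GABAergic interneurons with no filter on low counts, and was 0 to 3 and 1 to 44 without 1 library, where the lone library of a group is assumed to vary like the others. It stayed at 0 in the granule lineage. The sub-clusters of oligodendrocytes hold 4 to 61 nuclei per library, which limits every stage value. The 2 alternatives that leave out a sub-cluster were chosen after seeing the data.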

Other observations

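A pair of nuclei clusters stayed outside the classes. A cluster of shallow nuclei, 368, 79, 162 and 1900 in the Control female, Control male, LPS female and LPS male libraries, held 142, 152, 172 and 583 CPM of SPOCK1 and 179, 38.1, 272 and 149 CPM of SPOCK3. A cluster made mostly of called doublets held 342, 304, 311 and 801 CPM of SPOCK1. In both clusters SPOCK1 was highest in the LPS male library.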
